A study of Rattus norvegicus with 6 samples.

Results

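Transcripts of 7 genes of the fibroblast growth factor (FGF) system, the ligands Fgf4, Fgf5 and Fgf8 and the receptors Fgfr1, Fgfr2, Fgfr3 and Fgfr4, were measured in rat pluripotent cells. The members were all probe sets whose symbol in the platform's annotation table is exactly one of these names. That gave 13 probe sets for the 7 genes, out of 31042 probe sets for 14217 named genes, and all 13 were kept, since no filter on dim probe sets was applied.

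Affymetrix arrays measured total RNA of 3 samples of flat pluripotent stem (fPS) cells and 3 samples of embryonic stem (ES) cells, 1 array per sample, all of the Sprague-Dawley strain. Per the labels' protocols, which do not differ between the groups, the medium held LIF at 10 ng/ml, the GSK3 inhibitor CHIR99021 at 3 μM and the MEK inhibitor PD0325901 at 0.5 μM, and the cells were kept on mouse embryonic fibroblasts treated with mitomycin C in a medium with serum. The labels give no derivation or genotype for the fPS cells, and in one label field the fPS samples, too, are called embryonic stem cells. Whether the 3 samples of a group were grown as separate cultures is not said, and the p-values below therefore reflect the spread among these samples alone, part of which may be technical.

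FGFs are secreted proteins that bind receptor tyrosine kinases together with heparan sulfate. The activated receptor signals through docking proteins such as Frs2 to Ras, Raf, MEK and ERK. In mouse ES cells, Fgf4 is the FGF that the cells make themselves, and its signal through ERK prepares them to leave the naive state, a step that a MEK inhibitor blocks. In the mouse embryo Fgf5 marks the epiblast after implantation and Fgf8 the primitive streak.

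Most of the pluripotency markers measured had signal in both groups. Of 20 pluripotency markers listed, 13 were measured, and 11 of these, among them Sox2, Klf2, Tfcp2l1 and Epcam, lay above the median of their array on all 6 arrays. So did 6 of 18 endoderm markers and 6 of 11 trophoblast markers. Of the 13 pluripotency markers 0 passed, 5 had a positive and 8 a negative log2 change, and the groups did not overlap in 4 (22.6% of all genes). Among these 4, Sox2 had a log2 change of -0.97 and Lin28a of -1.30 (limma adjusted p = 0.181 and 0.0933). The others, Klf5 and Nr0b1, had positive log2 changes of 0.32 and 0.76 (limma adjusted p = 0.506 and 0.213). Pou5f1 and Nanog were not analysed here. Of 18 endoderm markers measured among 19 listed, 0 passed, 15 had a positive log2 change, 11 had an unadjusted p under 0.05 (17.5% of all genes), and the median was 0.86. Their summed intensity ran from 3853 to 5349 on the fPS arrays, against 2029.8 to 4269 on the ES arrays, and 0 of the 18 lay below 16 on all arrays. Sox17, an endoderm transcription factor, read 269.5, 214 and 192 on the fPS arrays, against 52.0, 63.8 and 109.6 on the ES arrays (log2 change 1.44, limma adjusted p = 0.0552, from 0.0125 to 0.302 over 19 alternatives, of which 5 passed). The mean over the probe sets of Sox17 gave 0.44. Gata4, another such factor, had a log2 change of 1.05 (limma adjusted p = 0.0560). Of the 11 trophoblast markers, all measured, 1 was lower and 0 were higher, and the log2 change was positive in 5 and negative in 6. An unadjusted p under 0.05 was reached by 3 (17.5% of all genes), and the groups did not overlap in 3 (22.6% of all genes). The summed intensity of the 11 ran from 3759 to 5676 on the fPS arrays, against 4154 to 5223 on the ES arrays. The lower one was the transcription factor Tfap2a (log2 change -2.30, limma adjusted p = 0.0388), a call that was lost when any single array but fPS replicate 1 was left out (adjusted p from 0.0970 to 0.179). Cdx2, another trophoblast factor, read 244, 144 and 124 on the fPS arrays, against 970, 377 and 706 on the ES arrays, and did not pass (log2 change -1.86, limma adjusted p = 0.0607). Ascl2, a further trophoblast factor, lay below 16 on all 6 arrays. The part of such cells in the values of the FGF genes was not tested. The array medians ran from 36.2 to 45.3 on fPS arrays and from 37.6 to 38.7 on ES arrays.

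RefSeq's table of rat start-site regions (build GRCr8, from 250 bases before to 50 after each gene's start) held 6 of the 7 members. The regions of Fgf4, Fgf5 and Fgfr3 are shown because they belong to the brightest member ligand, the ligand near the floor on every array and the receptor with the widest spread. Capitals mark the GC box GGGCGG, the TATA box TATAAA and the run TATATA, searched with the octamer ATGCAAAT on both strands.
Fgf4, chr1:209452979-209453278, plus strand: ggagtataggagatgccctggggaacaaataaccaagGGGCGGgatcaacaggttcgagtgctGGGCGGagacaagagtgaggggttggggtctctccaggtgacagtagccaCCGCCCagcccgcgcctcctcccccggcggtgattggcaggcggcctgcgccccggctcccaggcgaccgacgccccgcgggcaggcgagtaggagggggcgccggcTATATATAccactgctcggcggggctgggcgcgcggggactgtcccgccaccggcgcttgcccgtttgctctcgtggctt
Fgf5, chr14:11650194-11650493, minus strand: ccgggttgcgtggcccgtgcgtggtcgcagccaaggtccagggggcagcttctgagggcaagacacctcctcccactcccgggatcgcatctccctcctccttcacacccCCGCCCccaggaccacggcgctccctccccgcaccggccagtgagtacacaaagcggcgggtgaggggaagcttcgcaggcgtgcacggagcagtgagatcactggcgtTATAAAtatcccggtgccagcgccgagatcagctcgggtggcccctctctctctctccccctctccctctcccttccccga
Fgfr3, chr14:81227160-81227459, minus strand: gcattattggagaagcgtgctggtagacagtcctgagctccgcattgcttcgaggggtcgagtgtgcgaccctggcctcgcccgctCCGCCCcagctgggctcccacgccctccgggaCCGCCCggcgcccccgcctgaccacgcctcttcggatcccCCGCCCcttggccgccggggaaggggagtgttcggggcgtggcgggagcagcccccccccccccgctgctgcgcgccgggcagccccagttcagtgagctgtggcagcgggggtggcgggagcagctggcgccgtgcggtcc

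All 6 regions held a GC box, which 33.1% of all 33469 regions in the table hold. In Fgf4 a pair of overlapping TATATA matches began 30 and 28 bases before the start, and in Fgf5 a TATAAA began 31 bases before it. The table as a whole holds TATATA in 6.15% and TATAAA in 14.2% of its regions, and neither was found in the Fgf8, Fgfr2, Fgfr3 and Fgfr4 regions. The octamer was not found in any of the 6, against 1.78% of the table. The 300 bases held 29 CpG dinucleotides in Fgf4, 23 in Fgf5, 36 in Fgf8, 48 in Fgfr2, 31 in Fgfr3 and 14 in Fgfr4, against a median of 7 in the table. A match of letters is a description and shows no binding.

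None of the 7 genes passed the test between fPS and ES cells, whichever of their 13 probe sets was read. The test was limma's moderated test of log2(intensity + 16), adjusted by Benjamini-Hochberg across the 31042 probe sets, and a gene was called at an adjusted p under 0.05. Over all probe sets 0.693% passed, and over all genes, each read on its brightest probe set, 0.858%. At an unadjusted p under 0.05 there was 1 of the 13 probe sets, in Fgfr3, where 15.4% of all probe sets reached it. A linear model without moderation called 0 of the 13, but only 1 of all 31042 probe sets, so its result says little about these genes. In 0 of the 13 probe sets did the fPS and ES arrays separate without overlap, which 20.0% of all probe sets did. The adjusted p of the members ran from 0.228 to 0.979. The precision is limited by the number of arrays, and the 95% intervals below show which sizes of difference remained possible.

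**Figure D1:**
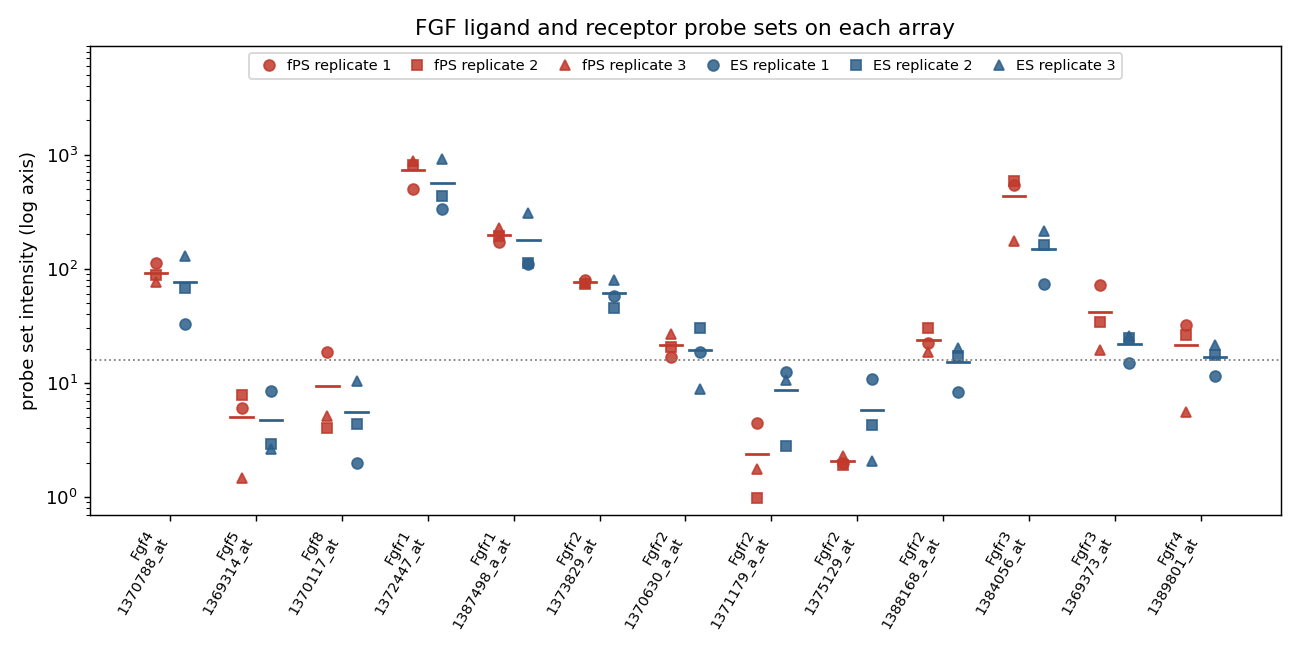
Probe set intensity (log axis) of the 13 probe sets on each array, with fPS arrays in red left of ES arrays in blue, one symbol per replicate, a bar at the group mean and a dotted line at 16, the constant added before taking logs. The groups overlap in every probe set, and Fgf5 lies below the dotted line on all 6 arrays.

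Fgf4, the ligand that pluripotent cells secrete, was measured on all arrays and varied most within ES cells. Its intensity was 112, 88.2 and 75.9 on the fPS arrays, against 32.7, 68.2 and 129 on the ES arrays. The ES arrays held both the lowest and the highest value, so the fPS range lay inside the ES range. Fgf4 averaged 92.1 ± 18.5 in fPS cells and 76.5 ± 48.5 in ES cells (SD, n = 3 each), a log2 change of 0.35 (SE 0.37, 95% interval -0.49 to 1.20, limma adjusted p = 0.724). Without ES replicate 1, the lowest array, the log2 change was -0.043.

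Fgf5, the marker of the epiblast after implantation, stayed near the floor in both groups. It read 5.98, 7.77 and 1.46 on the fPS arrays, against 8.52, 2.89 and 2.65 on the ES arrays, below the lower quartile of its array on all 6. The log2 change was 0.026 (95% interval -0.48 to 0.54, limma adjusted p = 0.979), and its sign turned when arrays were quantile normalized or centred on their median. Fgf8 was also dim. It read 18.8, 4.03 and 5.09 on the fPS arrays, against 1.99, 4.32 and 10.5 on the ES arrays, so that 1 of 6 arrays, fPS replicate 1, reached above 16. Its log2 change was 0.20 (95% interval -0.43 to 0.83, limma adjusted p = 0.802). No detection calls were in the table, so a low value cannot be read as absence of the transcript.

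Fgfr1, the receptor through which Fgf4 mainly acts in mouse ES cells, had 2 probe sets, and both ranked the 6 arrays in the same order. The brighter, 1372447_at, read 498, 816 and 885 on the fPS arrays, against 335, 434 and 914 on the ES arrays. ES replicate 3 was the highest of all arrays, and the other ES arrays lay below every fPS array. The other, 1387498_a_at, read 172, 195 and 229 on the fPS arrays, against 109, 113 and 310 on the ES arrays. The log2 changes were 0.46 (SE 0.38, 95% interval -0.40 to 1.33, limma adjusted p = 0.631) and 0.29 (SE 0.37, 95% interval -0.54 to 1.13, limma adjusted p = 0.776). Without ES replicate 3 they were 0.87 and 0.75 (adjusted p = 0.263 and 0.190), and without ES replicate 1 they were 0.17 and 0.057 (adjusted p = 0.906 and 0.973).

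Collagen genes of fibroblasts, the cell type of the feeders, were also highest on ES replicate 3. Averaged over 8 of them, the log2 level came to 6.62, 6.35 and 7.40 on the fPS arrays, against 5.64, 6.34 and 7.70 on the ES arrays. All 21 fibroblast markers listed were measured, with a summed intensity of 3151 to 3739 on the fPS arrays, against 2479 to 3596 on the ES arrays, and that sum was highest on fPS replicate 3. The sum includes the bright Timp1, which read 2080, 2358 and 1404 on the fPS arrays, against 2106, 1722 and 590 on the ES arrays. By mean log2 level the 21 markers were highest on ES replicate 3 (6.53), then fPS replicate 3 (6.50). The feeders were mouse cells, and how far these rat probe sets read mouse RNA was not tested. Of these 21, Twist2 lay below 16 on all 6 arrays. The part of feeder RNA in the Fgfr1 signal was not tested directly. With the collagen level as a covariate the Fgfr1 log2 changes were 0.32 and 0.15 (adjusted p = 0.590 and 0.795). In bulk samples, fewer cells of a type and less RNA per cell cannot be told apart.

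Fgfr2, a receptor with splice forms of different ligand choice that in the mouse blastocyst marks the primitive endoderm, had 5 probe sets. On the brightest, 1373829_at, the fPS arrays lay close together at 79.2, 74.0 and 75.8, against 58.0, 45.5 and 79.6 on the ES arrays. ES replicate 3 was again the highest array, and the other ES arrays lay below all fPS arrays. The group means were 76.4 ± 2.61 in fPS cells and 61.0 ± 17.2 in ES cells (SD, n = 3 each), a log2 change of 0.28 (SE 0.22, 95% interval -0.23 to 0.80, limma adjusted p = 0.611). The other 4 Fgfr2 probe sets were dimmer and went both ways. Their log2 changes were 0.36 for 1388168_a_at, 0.12 for 1370630_a_at, -0.25 for 1375129_at and -0.40 for 1371179_a_at, and those of negative sign lay below 16 on all 6 arrays. Which splice forms each probe set reads was not analysed here. The summed intensity of the endoderm markers above, like Fgfr2 on 1373829_at, had its highest ES value on ES replicate 3 (4269). Not every single marker did, and the part of these markers in the Fgfr2 values was not tested.

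Fgfr3, a receptor best known for restraining bone growth, had the largest difference among the 7 genes, and it rested on fPS replicates 1 and 2. Its brighter probe set, 1384056_at, read 541, 593 and 175 on the fPS arrays, against 73.6, 162 and 216 on the ES arrays. Both fPS replicates 1 and 2 lay above every ES array, while fPS replicate 3 lay within the ES range. The means were 436 ± 228 in fPS cells and 150 ± 71.7 in ES cells (SD, n = 3 each), a log2 change of 1.38 (SE 0.49, 95% interval 0.25 to 2.50). It reached an unadjusted p of 0.0219 and did not pass after adjustment (limma adjusted p = 0.228). The log2 change was positive in 18 of 18 alternative settings, from 0.98 without ES replicate 1 to 2.21 with replicate 3 of both groups left out, and passed in 0 of them (adjusted p from 0.0891 to 0.548).

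The dimmer Fgfr3 probe set and that of Fgfr4, a receptor with a main role in liver, placed the arrays alike. Fgfr3 on 1369373_at read 72.3, 34.0 and 19.3 on the fPS arrays, against 15.0, 24.9 and 25.7 on the ES arrays. Its log2 change was 0.52 (SE 0.33, 95% interval -0.24 to 1.28, limma adjusted p = 0.518). Fgfr4 read 32.1, 26.1 and 5.58 on the fPS arrays, against 11.4, 17.6 and 21.3 on the ES arrays, with fPS replicate 3 the lowest of all. Its log2 change was 0.12 (SE 0.32, 95% interval -0.61 to 0.84, limma adjusted p = 0.918). In 4 of the 13 member probe sets, the fourth being 1388168_a_at of Fgfr2, fPS replicates 1 and 2 lay above every ES array and fPS replicate 3 did not, an arrangement noticed in these values that 8.10% of all probe sets show. Except for 1384056_at these probe sets were dim. Fgfr4 and 1388168_a_at lay above their array's median on 0 of the 6 arrays, and 1369373_at on 1. Other values on fPS replicate 3 went both ways. The endoderm and fibroblast sums given above were the highest of the 6 arrays there (5349 and 3739). The median intensity of fPS replicate 3, 36.2, was the lowest of the 6 arrays. The summed intensity of the 13 pluripotency markers was 24768, 22370 and 18356 on the fPS arrays, against 22949, 20749 and 29811 on the ES arrays. Their part in the Fgfr3 and Fgfr4 values was not tested. With arrays centred on their median the Fgfr3 log2 change on 1384056_at was 1.32 (adjusted p = 0.182).

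**Figure D2:**
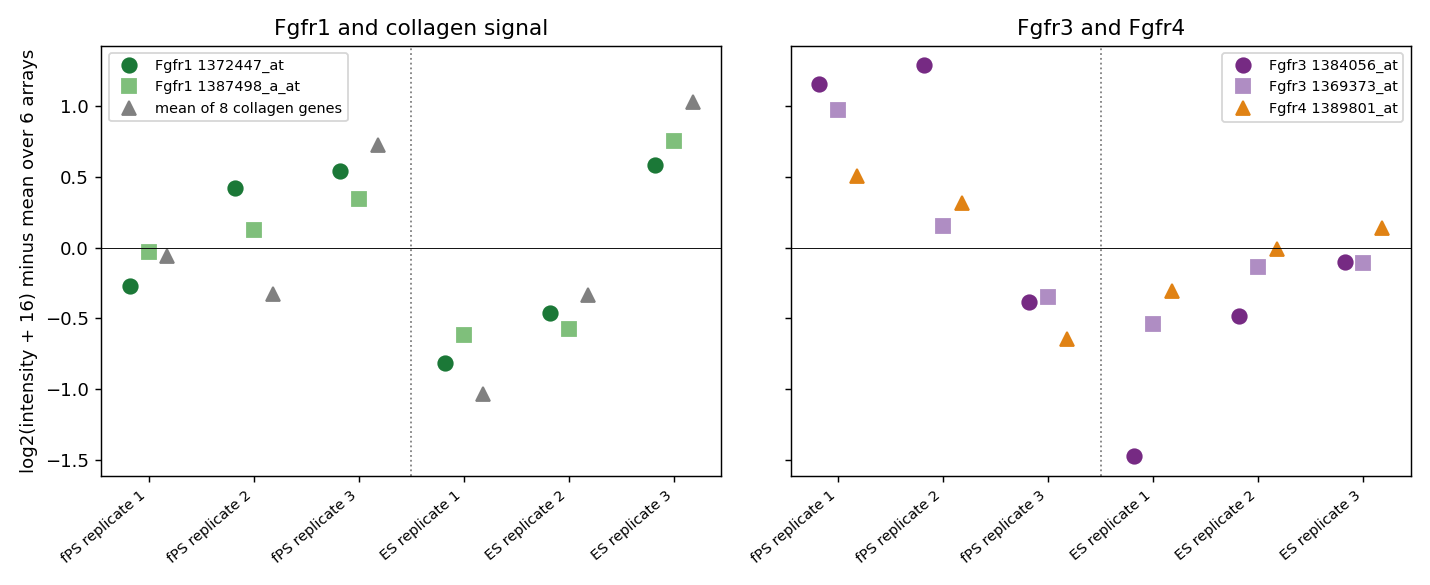
log2(intensity + 16) of each array minus the mean over the 6 arrays, for the Fgfr1 probe sets with the mean of 8 collagen genes (left panel) and for the Fgfr3 and Fgfr4 probe sets (right panel), with fPS arrays left of ES arrays. Fgfr1 and the collagens are highest on ES replicate 3, while Fgfr3 and Fgfr4 are highest on fPS replicates 1 or 2. Both are lower on fPS replicate 3, which is the lowest array for Fgfr4 but not for Fgfr3.

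Read on their brightest probe sets, the 7 genes had a median log2 change of 0.28, and all 7 signs were positive, although that of Fgf5 turned negative after quantile normalization or centring. Over all 14217 genes 7107 signs were positive and the median was -4.59e-05. The values of the 7 genes share the same 6 arrays and are not independent of each other.

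**Figure D3:**
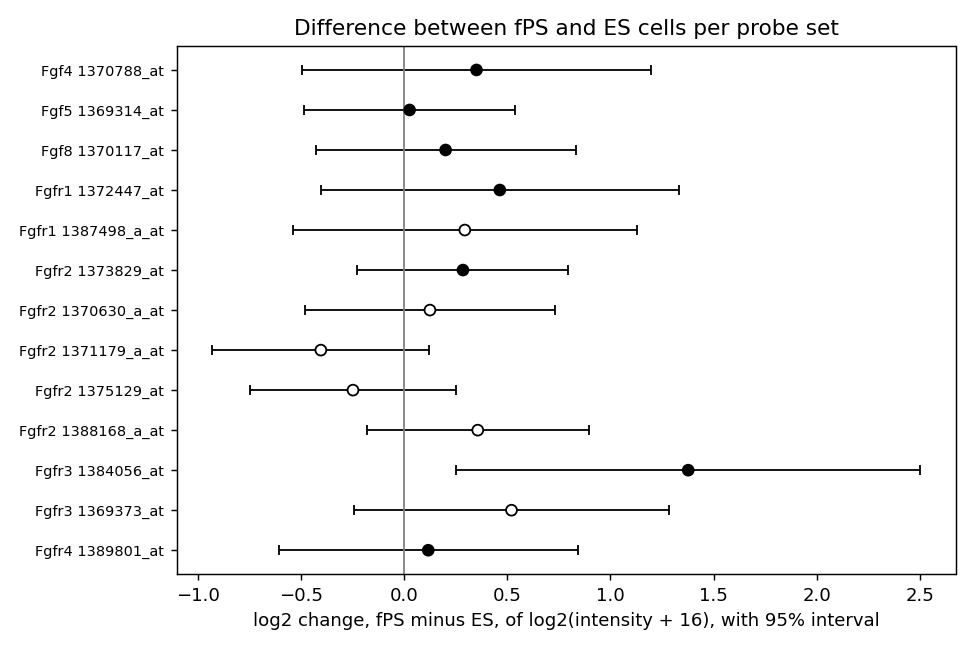
Log2 change, fPS minus ES, of log2(intensity + 16) for the 13 probe sets with 95% intervals from limma, filled circles for the brightest probe set of each gene and open circles for the others. The interval of Fgfr3 on 1384056_at (0.25 to 2.50) lies above 0, and the other 12 include 0.

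The genes whose profiles over the 6 arrays were closest to a member were sought for the 4 members with a range of at least 1 on the log2 scale, by the root mean square difference of profiles centred on their own means. Closest to Fgf4 were Rap2b (0.12) and Gstm4 (0.13), and closest to Fgfr1 were Mga (0.081) and Lrig3 (0.11). Closest to Fgfr3 were Hoxd10 (0.23) and Rnf217 (0.31), and closest to Fgfr4 were Epm2aip1 and Mplkip (0.095 and 0.096). Hoxd10, a gene of body patterning, read 84.1, 127 and 41.9 on the fPS arrays, against 5.97, 22.0 and 35.1 on the ES arrays, and did not pass (limma adjusted p = 0.139). Genes whose symbols begin with LOC, RGD or Mgc were left out of the search. Among the rest of the 14217 genes these are the smallest differences over 6 arrays, and they are given as a description only.

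Fgf4 lies on chromosome 1 of GRCr8 and has Fgf3 and Fgf19 as its nearest protein-coding neighbours, Fgf19 being the rat counterpart of mouse Fgf15. Fgf19 read 7.89, 19.4 and 18.8 on the fPS arrays, against 38.6, 33.4 and 38.4 on the ES arrays. All fPS arrays were below all ES arrays, yet the difference did not pass (log2 change -0.77, SE 0.23, limma adjusted p = 0.157). Fgf3, a dim probe set, had a log2 change of -0.14 (adjusted p = 0.912), and Ccnd1, the G1 cyclin further along the same stretch, of -0.31 (adjusted p = 0.729). Fgfr3 lies on chromosome 14 between the protein-coding genes Letm1 and Tacc3, with Nsd2 beyond Letm1. Letm1 differed by 0.18 on the log2 scale, Tacc3 by -0.45 and Nsd2 by -0.27 (adjusted p = 0.730, 0.389 and 0.717).

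Among 19 other FGF ligands measured of 20 listed, 0 passed, 2 had an unadjusted p under 0.05 (17.5% of all genes), and the median log2 change was -0.14. The listed name without a value was Fgf15, whose rat counterpart Fgf19 was measured. The brightest by mean log2 level were Fgf13, a member that stays inside the cell, with 155, 140 and 100.2 on the fPS arrays, against 149, 163 and 128 on the ES arrays, then Fgf17 and Fgf19, though Fgf21 lay next to Fgf19 on that scale and Fgf9 was above Fgf19 in mean intensity. Fgf13 differed by -0.15 on the log2 scale (adjusted p = 0.817) and Fgf17 by -0.17 (adjusted p = 0.909). Fgf2, the ligand added to cultures of primed cells, read 25.3, 3.30 and 21.0 on the fPS arrays, against 32.9, 34.2 and 1.26 on the ES arrays. Its lowest array was ES replicate 3, and the log2 change was -0.17 (adjusted p = 0.913). Fgf10, a ligand of Fgfr2 in budding organs, was higher on all fPS arrays (37.2, 27.1 and 30.2) than on all ES arrays (23.7, 15.9 and 8.56) without passing (log2 change 0.59, adjusted p = 0.282).

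Of 27 genes measured among 28 co-receptors, proteoglycans and enzymes of heparan sulfate, 0 passed, 5 had an unadjusted p under 0.05 (17.5% of all genes), and the median log2 change was 0.17. The brightest were the glypicans Gpc2 and Gpc4, which carry heparan sulfate at the cell surface, and Sulf2, which removes sulfate groups from it, with log2 changes of -0.71, -0.15 and -0.33 (adjusted p = 0.276, 0.877 and 0.634). Of the others, chosen here after their values were seen, Glce, the epimerase that forms iduronic acid in heparan sulfate, came closest to the threshold. It read 175, 118 and 132 on the fPS arrays, against 339, 253 and 398 on the ES arrays (log2 change -1.13, SE 0.25, limma adjusted p = 0.0777, from 0.0259 to 0.309 over the alternatives, of which 4 of 19 passed). The sulfatase Sulf1 had a log2 change of -0.87, the syndecan Sdc4 of 0.998 and Flrt3, a membrane protein that binds FGF receptors, of 1.20 (adjusted p = 0.129, 0.121 and 0.157). For each of these 4 genes the groups did not overlap, as for 7 of the 27 genes and for 22.6% of all genes.

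Downstream of the receptors, 16 of 23 adaptors and kinases were measured, of which 1 was lower in fPS cells, 0 were higher and 15 did not pass, with a median log2 change of -0.059. An unadjusted p under 0.05 was reached by 3 of the 16, against 17.5% of all genes, and the groups did not overlap in 4, against 22.6%. Crk, an adaptor that links docking proteins to exchange factors, fell. It read 302, 221 and 210 on the fPS arrays, against 687, 547 and 796 on the ES arrays (log2 change -1.41, SE 0.24, limma adjusted p = 0.0432). Its other probe sets differed by -0.87 and -0.46 on the log2 scale (adjusted p = 0.116 and 0.486), and the call was lost whichever single array was left out (adjusted p from 0.0505 to 0.218). Gab1, a docking protein, had a log2 change of -1.27 (adjusted p = 0.103), with 787, 665 and 655 on the fPS arrays, against 1410, 1248 and 2864 on the ES arrays. Frs2, the main docking protein of FGF receptors, had -0.12, the phosphatase Ptpn11 0.13 and Nras -0.30 (adjusted p = 0.874, 0.846 and 0.665).

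Among 18 feedback and target genes of FGF and ERK measured of 21 listed, 4 were higher, 0 were lower and 14 did not pass, with a median log2 change of 0.070, where 0.858% of all genes passed in either direction. An unadjusted p under 0.05 was reached by 8 of the 18, against 17.5% of all genes, and the groups did not overlap in 8, against 22.6%. The 4 that passed were Fos, Egr1, Dusp4 and Spry1, with log2 changes of 4.74, 2.75, 1.35 and 1.32 (limma adjusted p = 0.0354, 0.0284, 0.0339 and 0.0455), and 0 or 1 of the list passed when single arrays were left out and 0 with a pseudocount of 1 or 64. Fos, an immediate early gene, read 1450.1, 2322 and 2694 on the fPS arrays, against 29.96, 20.8 and 269.7 on the ES arrays, and the mean over its probe sets gave a log2 change of 2.23 (adjusted p = 0.0168). With pseudocounts of 64 and 1 the log2 change was 0.65 and 2.12 for Dusp4, and 0.76 and 1.74 for Spry1. Other feedback genes that FGF induces did not pass. Dusp6, a phosphatase of ERK, read 157, 106 and 112 on the fPS arrays, against 126, 120 and 120 on the ES arrays (log2 change 0.013, 95% interval -0.48 to 0.50, adjusted p = 0.990), and the mean over its probe sets gave -0.34. The inhibitor Spry2 differed by -0.026 on the log2 scale (95% interval -0.75 to 0.70, adjusted p = 0.985), and Spry4 by -0.012 (95% interval -0.56 to 0.53, adjusted p = 0.992). Etv5, a transcription factor that FGF signals induce, read 588, 335 and 366 on the fPS arrays, against 891, 804 and 1036 on the ES arrays (log2 change -1.09, adjusted p = 0.0933, from 0.0345 to 0.346 over the alternatives, of which 1 of 19 passed). Its other probe set differed by -0.33 on the log2 scale (adjusted p = 0.510), and the mean over both gave -0.71 (adjusted p = 0.137).

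**Figure D4:**
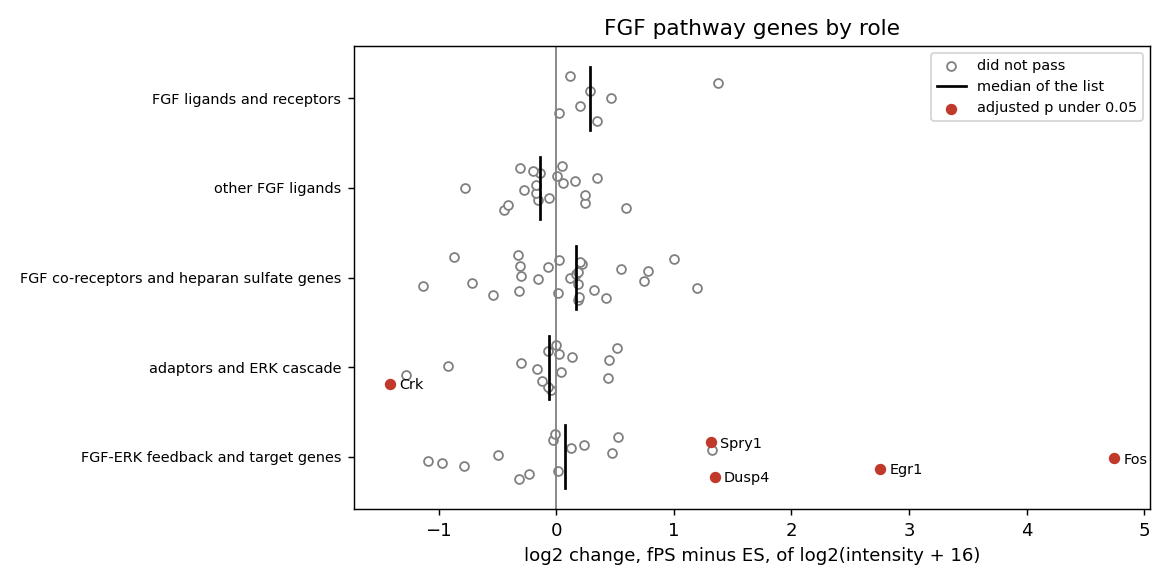
Log2 change, fPS minus ES, of log2(intensity + 16) for each measured gene of the FGF system by role, with filled red circles for genes past an adjusted p of 0.05, open circles for the others and a black bar at each list's median. The 7 ligands and receptors did not pass, and the named points are Crk (-1.41), Spry1, Dusp4, Egr1 and Fos (4.74).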

How the data were processed

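The deposited table holds 1 linear intensity for each probe set on each array, judged from the range of the values. How the authors summarised probes, corrected background and scaled the arrays is not given in the sources used here. Of 31099 probe sets, 57 controls were left out and 31042 were tested. Symbols came from the platform's annotation (20826 probe sets with 1 symbol, 436 with several, 9780 with none). For 20758 of the probe sets with 1 symbol the gene identifier was found in RefSeq's GRCr8 table, with 0 symbols changed.

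Values were analysed as log2(intensity + 16), so fold changes of dim probe sets are understated. The comparison used lmFit and eBayes of limma 3.58.1 under R 4.3.3, and p-values were adjusted by Benjamini-Hochberg across the whole table. For each gene the brightest probe set, by its mean log2 level over the 6 arrays, was read. Figures used matplotlib 3.10.9 in Python 3.11.15. The fit was tested on simulated data. The members and lists were chosen with earlier results of these data known. Named were all member probe sets, of each list the genes past the threshold (up to 6) and the 3 brightest others, and the 2 nearest profiles of each variable member. Further genes were named after their values were seen: Glce, Sdc4, Flrt3, Sulf1, Fgf10, Dusp6, Spry4, Frs2, Fgf2, Fgf9, Fgf21, Sox17, Gata4, Tfap2a, Lin28a, Klf5, Nr0b1, Cdx2, Hand1, Timp1, and the neighbours Fgf3, Letm1, Tacc3 and Nsd2. The alternatives were other scalings, pseudocounts of 1 and 64, filters on dim probe sets, other variance settings, a replicate block, a collagen covariate, other choices of probe set and left-out arrays.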

Additional observations from a re-analysis of the deposited data

How the results depend on the processing

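Of the 7 members, 0 passed in each of the 19 alternatives, and their median log2 change stayed positive, from 0.15 to 0.57. With 3 arrays per group and no detection calls, the intervals given above bound what could be seen, and dim probe sets (Fgf5, Fgf8 and 2 of Fgfr2) allow little reading. That also holds for Fgfr4 and the Fgfr2 probe sets 1370630_a_at and 1388168_a_at, above their array's median on 0 arrays. Fgfr3 on 1369373_at was above it on 1 array. Counts over all probe sets moved with the settings: 337 after quantile normalization, 376 with centred arrays, 0 and 41 with pseudocounts of 1 and 64, 759 and 899 without the dimmest 30% and 50%, 619 with trend and robust settings, 1 without moderation, 100 with the collagen covariate and 0 with fPS replicate 3 and ES replicate 3 both left out. The counts of genes were 203 with centred arrays, 0 and 26 with those pseudocounts, 416 and 506 with those filters, 358 with trend and robust settings, 0 without moderation, 62 with the covariate, 300 with means over probe sets and 0 without that pair of arrays. Without single arrays they ran from 0 to 162 probe sets and from 0 to 93 genes. The cause of these moves was not tested, except that the filters adjust over fewer probe sets and left-out arrays leave fewer samples.

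Of the adaptors and ERK cascade, 0 passed with either pseudocount, without moderation, with the collagen covariate, with means over probe sets, whichever single array was left out, and without that pair, 2 without the dimmest 30% and with trend and robust settings, and 3 without the dimmest 50%. Of the feedback and target genes, 0 passed with either pseudocount, without moderation and without that pair, 2 with the covariate, and 0 to 1 without single arrays. Of the co-receptors and heparan sulfate genes, 1 passed with either filter, with trend and robust settings and with means over probe sets.

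The same replicate numbers occur in both groups, but the deviations from the group means of same-numbered samples correlated at 0.15, 0.020 and 0.075 over all probe sets, so the numbers were not taken as pairs, although each fPS array correlated best with the ES array of its own number. With the replicate block 107 probe sets and 64 genes passed, 0 of the members, 0 of the adaptors and cascade and 2 of the feedback genes, and the log2 change of Fgfr3 on 1384056_at had an adjusted p of 0.269.

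Signs turned only for log2 changes that did not pass. Quantile normalization gave -0.038 for Fgf5, 0.10 for Spry2 and 0.073 for Spry4, and centred arrays gave -0.034 for Fgf5 and -0.047 for Dusp6. Means over probe sets gave -0.34 for Dusp6 and 0.075 for Nsd2. With fPS replicate 3 and ES replicate 3 both left out the values were 0.85 for Fgf4, -0.81 for Fgf2, -0.21 for Fgfr2 on 1370630_a_at, 0.23 for Gpc4, -0.11 for Ptpn11, 0.022 for Ccnd1, 0.41 for Spry2, 0.20 for Spry4 and 0.17 for Frs2. Without single arrays the members ran from -0.043 to 0.74 for Fgf4, -0.067 to 0.16 for Fgf5, -0.052 to 0.36 for Fgf8, -0.11 to 0.47 for Fgfr4 and -0.10 to 0.34 for Fgfr2 on 1370630_a_at. The other genes ran from -0.47 to 0.24 for Fgf17, -0.68 to 0.17 for Fgf2, -0.54 to 0.089 for Fgf3, -0.27 to 0.0084 for Fgf13, -0.40 to 0.099 for Gpc4, 0.0029 to 0.25 for Ptpn11, -0.22 to 0.069 for Frs2, -0.33 to 0.29 for Spry2, -0.19 to 0.11 for Spry4, -0.14 to 0.11 for Dusp6 and -0.53 to 0.073 for Ccnd1.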
